A study of Mus musculus with 12 samples.

Results

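The genes described here are 9 transcription factors of sensory neurons, Pou4f1, Pou4f2, Pou4f3, Isl1, Isl2, Tlx3, Prdm12, Runx1 and Prrxl1, chosen by gene symbol from a table of 24490 features. All 9 were found, each on a single row. RNA was sequenced from the dorsal root ganglia (DRG) of adult C57Bl/6 mice, which the study's methods describe as male, with no transgene or treatment in any group. There were 12 samples in 3 groups of 4. Intact samples were ganglia frozen whole and came from 1 mouse each. Unsorted samples (called dissociated in the sample titles) were ganglia broken up with dispase, collagenase and DNAse, and each pooled 2 mice. MACS-sorted samples went through the same dissociation and then through magnetic cell sorting (MACS), in which a cocktail of antibodies and magnetic beads held back non-neuronal cells on a column, and each pooled 8 mice. Ganglia came from all spinal levels. Expression was given in FPKM, which scales the fragments of a gene by its transcript length and by all mapped fragments of the library.

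DRG hold the cell bodies of the neurons that carry touch, position, temperature, itch and pain from the body. Their identity is set in steps. The POU-homeodomain factor Pou4f1 (Brn3a) and the LIM-homeodomain factor Isl1 are switched on in nearly all sensory neurons as they leave the cell cycle and help to end the early neurogenic programme. Later factors then split the lineages. Prdm12 is needed for the pain-sensing neurons, or nociceptors, to form, Runx1 directs the non-peptidergic branch of nociceptors, which come to use the receptor Ret, and Runx3 and Maf act in the neurons of position and touch. Many of these factors remain on in the adult.

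The promoters of 8 of the 9 genes were matched in RefSeq on GRCm38.p6, in 9 windows of 250 bases before the transcription start, because Runx1 has a distal and a proximal start. Sequences are shown for 2 pairs of paralogs, Isl1 with Isl2 and Pou4f1 with Pou4f2, whose estimated changes with sorting differed in size, and for both starts of Runx1, which the single FPKM value of that gene does not separate. The windows are chr13:116309689-116309938 on the minus strand for Isl1, chr9:55540899-55541148 on the plus strand for Isl2, chr14:104468000-104468249 on the minus strand for Pou4f1 and chr8:78436648-78436897 on the minus strand for Pou4f2. Those of Runx1 are chr16:92826075-92826324 (distal) and chr16:92697330-92697579 (proximal), both on the minus strand. Each is written 5′ to 3′ along the gene. Capitals mark the CCAAT box, searched as CCAAT on both strands, and the GC box, searched as GGGCGG on both strands, whose copies may overlap one another.
Isl1: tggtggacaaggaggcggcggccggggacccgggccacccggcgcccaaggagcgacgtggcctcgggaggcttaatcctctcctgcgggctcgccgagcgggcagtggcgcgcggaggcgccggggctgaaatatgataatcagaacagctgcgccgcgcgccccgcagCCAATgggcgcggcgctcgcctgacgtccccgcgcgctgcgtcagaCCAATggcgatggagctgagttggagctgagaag
Isl2: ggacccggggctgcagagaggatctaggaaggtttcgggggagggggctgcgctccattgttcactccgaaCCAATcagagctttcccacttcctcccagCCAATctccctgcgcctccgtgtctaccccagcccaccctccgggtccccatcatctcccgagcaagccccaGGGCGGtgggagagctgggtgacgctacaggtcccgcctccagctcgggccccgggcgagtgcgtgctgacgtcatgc
Pou4f1: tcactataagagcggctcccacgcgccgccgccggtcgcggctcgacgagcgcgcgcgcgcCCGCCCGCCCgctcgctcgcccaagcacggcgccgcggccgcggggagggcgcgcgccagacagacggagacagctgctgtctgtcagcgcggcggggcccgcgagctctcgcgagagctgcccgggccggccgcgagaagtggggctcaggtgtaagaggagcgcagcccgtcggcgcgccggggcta
Pou4f2: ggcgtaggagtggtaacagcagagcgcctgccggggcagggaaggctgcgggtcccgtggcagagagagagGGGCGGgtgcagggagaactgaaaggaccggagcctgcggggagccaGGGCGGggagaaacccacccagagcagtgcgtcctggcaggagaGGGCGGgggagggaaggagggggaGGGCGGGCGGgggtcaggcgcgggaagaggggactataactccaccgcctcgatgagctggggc
Runx1 distal: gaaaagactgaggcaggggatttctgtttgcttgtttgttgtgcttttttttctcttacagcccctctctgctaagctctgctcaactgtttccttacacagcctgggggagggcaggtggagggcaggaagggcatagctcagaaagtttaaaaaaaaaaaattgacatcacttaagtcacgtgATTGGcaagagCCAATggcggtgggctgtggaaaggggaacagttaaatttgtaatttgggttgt
Runx1 proximal: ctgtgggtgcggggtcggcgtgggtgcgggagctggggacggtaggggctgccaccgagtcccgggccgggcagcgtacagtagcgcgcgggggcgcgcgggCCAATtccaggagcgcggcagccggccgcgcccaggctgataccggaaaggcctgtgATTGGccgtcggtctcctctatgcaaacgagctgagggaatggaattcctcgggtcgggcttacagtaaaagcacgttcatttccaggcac

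The members of each pair differ in CpG content. Isl1 holds 33 CpG and Isl2 16, Pou4f1 holds 47 and Pou4f2 17, and the distal and proximal windows of Runx1 hold 2 and 27. Over all 32841 promoters of the same length the median was 6 CpG, and over the 11959 promoters of genes that averaged 1 FPKM or more in these samples it was 16. CCAAT stood in 5 of the 9 windows, in 33.9% of all promoters and in 34.8% of the 11959 promoters above. GGGCGG stood in 5 of the 9 as well, in 32.7% of all and in 58.0% of those 11959 promoters. Among the windows printed, CCAAT occurs in Isl1, Isl2 and both windows of Runx1, and GGGCGG in Isl2, Pou4f1 and Pou4f2. Searched on both strands, a TATA box (TATAAA) was in none of the 9 windows, in 12.4% of all promoters and in 6.36% of the 11959 promoters. The homeodomain hexamer TAATTA was in none, in 4.84% and in 2.39%, and the E-box hexamer CAGATG in none, in 14.4% and in 10.0%. Other forms of these sites, such as the E-box CAGCTG and the shorter homeodomain core TAAT, were not searched. Both occur in the printed window of Isl1. The Runt core (TGTGGT) was in 1 of the 9 windows, that of Prrxl1, in 14.0% of all and in 10.3% of the 11959 promoters.

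The deposited values carry no read totals. From the spacing of low FPKM values, with fragments of 150 bases assumed, depth was estimated at 13500000 to 17100000 fragments for MACS-sorted, 15600000 to 18300000 for unsorted and 16100000 to 19200000 for intact samples. Some samples stood apart. Red blood cell genes (9 of 10 listed) summed to 1685 and 2535 FPKM in MACS-sorted replicates 1 and 2 and to 12544 and 15381 FPKM in replicates 3 and 4, against 112 to 400 FPKM in unsorted samples, although Hba-a1 was listed at 0 in every sample. Skeletal muscle genes summed to 2853 FPKM in intact replicate 1 and to 16.4 to 65.8 FPKM in the other intact samples. Unsorted replicates 1 and 2 lay closest of all pairs, at 1.88 times the squared difference that counting noise would give where other pairs lay at 3.68 to 119 times, and were kept as 2 samples. Pan-neuronal genes were high in all 3 groups (sums of 3644 to 4669 FPKM after sorting, 4201 to 4507 FPKM before it and 3523 to 3758 FPKM in whole ganglia). Satellite glial genes summed to 85.3 to 146 FPKM in MACS-sorted samples, against 541 to 738 FPKM in unsorted ones. Most of the sorted sum was Glul, at 82.3 to 110.6 FPKM, while Fabp7 fell to 10.8 FPKM for MACS-sorted replicate 4 and to between 1.21 and 2.35 FPKM for the other 3, from 203 to 310.1 FPKM before sorting.

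The study asked which genes mark nociceptors by setting MACS-sorted against unsorted samples. Here 8 of the 9 factors were higher after sorting and 1, Pou4f3, was lower, and for each of them the 4 MACS-sorted samples stood apart from the 4 unsorted ones. The summed level of the 9 factors was 526 ± 41.6 FPKM (SD, n = 4) in MACS-sorted, 274 ± 8.76 FPKM (SD, n = 4) in unsorted and 265 ± 14.4 FPKM (SD, n = 4) in intact samples. All 9 passed the test (two-sided limma on log2(FPKM + 0.1), Benjamini-Hochberg adjusted p under 0.05 over 12038 genes). Among all genes tested 46.5% passed, 18.8% higher and 27.7% lower, and 18.4% were higher and 27.8% lower with no overlap. A gene was called when its log2 ratio of group means also went beyond 0.5 and its higher group had a mean above 5 FPKM. By these 3 criteria 7 factors were called higher and 1 lower, with Isl1 short of the size criterion. Of all genes tested 20.7% were called, 8.15% higher and 12.5% lower. The median log2-fold change was 1.07 over the 9 factors and -0.04 over all genes tested. Several factors of this list, Tlx3, Pou4f1, Pou4f2, Isl2 and Prdm12 among them, were picked out by the study from these same samples, so their direction here is not independent evidence. In whole preparations such as these, fewer cells of a type and less RNA per cell cannot be told apart.

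**Figure D1:**
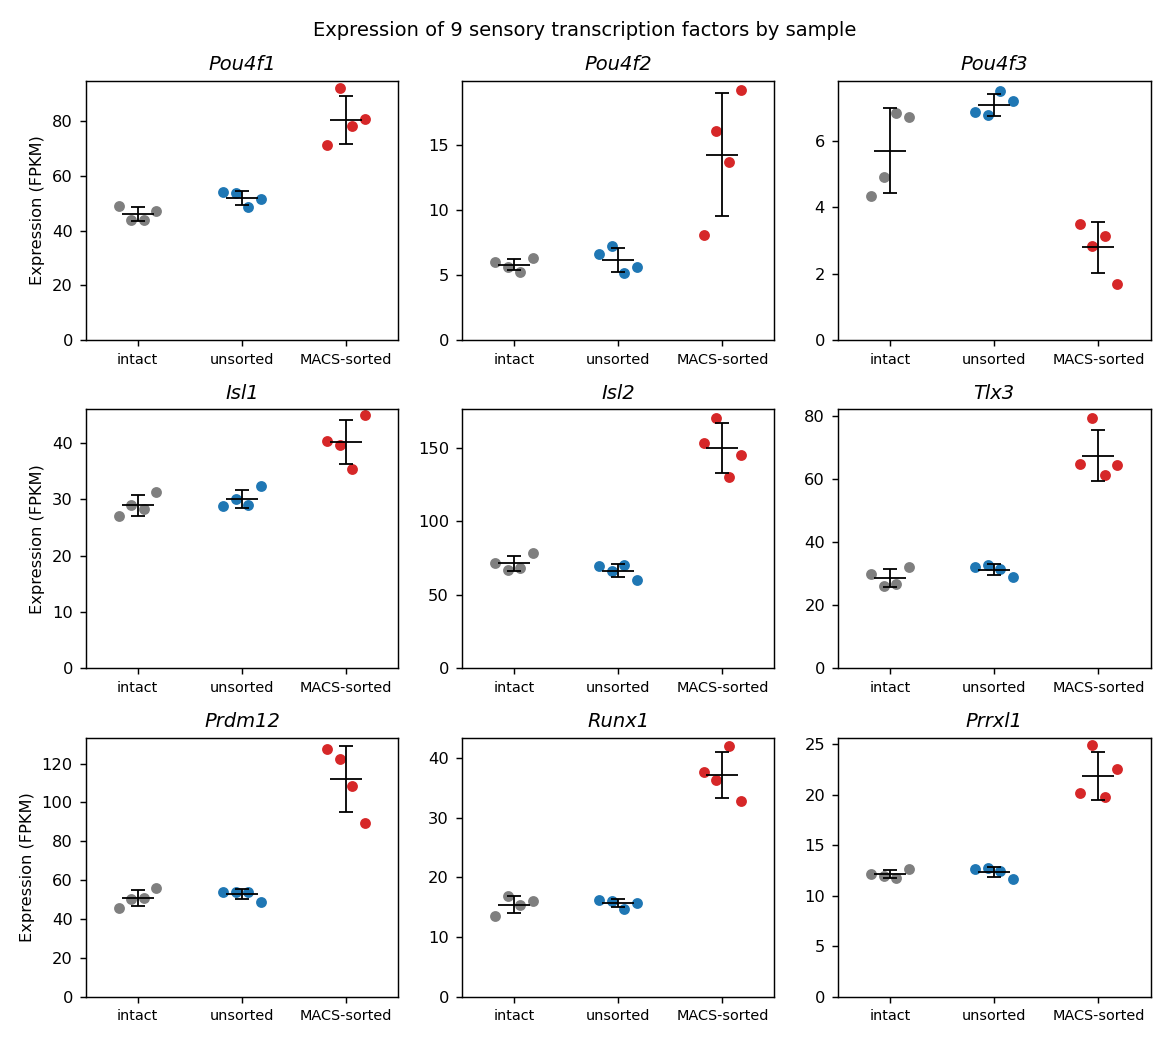
Expression of each factor in FPKM (vertical axes, linear from 0, one panel per gene) in the 4 samples of each group (points), with the group mean (long bar) ± SD (short bars). In 8 panels all MACS-sorted points lie above all unsorted points, and in the panel of Pou4f3 they all lie below, at 1.70 to 3.50 FPKM against 6.77 to 7.51 FPKM.

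The 3 POU factors did not move together. Pou4f1 (chr14:104462325-104467999, minus strand), a regulator of sensory gene expression from the embryo on, was at 71.3, 92.3, 78.2 and 80.9 FPKM in replicates 1 to 4 of the MACS-sorted group. In unsorted replicates 1 to 4 it was at 54.1, 53.8, 48.7 and 51.5 FPKM. Every sorted sample was thus above every unsorted one, with the widest spread among the sorted samples. The log2-fold change of Pou4f1 was 0.63 (standard error, SE, 0.084, adjusted p = 2.3e-04, limma), a ratio of means of 1.55. Pou4f2 (Brn3b; chr8:78433009-78436652, minus strand), best known from retinal ganglion cells, was at 8.05, 16.1, 13.6 and 19.2 FPKM in MACS-sorted and at 6.63, 7.21, 5.18 and 5.61 FPKM in unsorted replicates 1 to 4. MACS-sorted replicate 1 lay just above the highest unsorted sample and replicate 4 far above it. The resulting log2-fold change was 1.14 (SE 0.24, adjusted p = 0.0034, limma), and it was 0.89 (adjusted p = 0.027) without MACS-sorted replicates 3 and 4.

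Pou4f3 (Brn3c; chr18:42394597-42396093, plus strand), a factor of inner ear hair cells that is also found in part of the sensory neurons, fell. Levels of 3.50, 2.82, 3.13 and 1.70 FPKM were found in replicates 1 to 4 of the MACS-sorted group. In unsorted replicates 1 to 4 it was 6.86, 6.77, 7.51 and 7.19 FPKM. The unsorted samples were nearly level and the sorted samples all low, with replicate 4 the lowest. The log2-fold change was -1.36 (SE 0.20, adjusted p = 3.6e-04, limma), a ratio of means of 0.394. These values rest on few reads, an estimated 33 to 72 fragments per MACS-sorted and 150 to 170 per unsorted sample. Without MACS-sorted replicates 3 and 4 the log2-fold change of Pou4f3 was -1.15.

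Of the 2 Islet factors, Isl2 showed the larger estimate. Isl2 (chr9:55541149-55546178, plus strand), a LIM-homeodomain factor shared by sensory and motor neurons, was at 153, 170.4, 129.8 and 145 FPKM in replicates 1 to 4 of the MACS-sorted group. In unsorted replicates it was at 69.7, 65.9, 70.01 and 60.0 FPKM. The lowest sorted sample was well above the highest unsorted one, and Isl2 rose by a log2-fold change of 1.17 (SE 0.092, adjusted p = 9.7e-06, limma). Isl1 (chr13:116298270-116309688, minus strand), which acts with Pou4f1 at the exit from neurogenesis, was at 40.4, 39.7, 35.5 and 45.0 FPKM in MACS-sorted replicates. Its unsorted values were 28.7, 30.0, 29.0 and 32.3 FPKM. The groups were apart by a small gap, between unsorted replicate 4 and MACS-sorted replicate 3. Isl1 rose by a log2-fold change of 0.42 (SE 0.082, adjusted p = 0.0023, limma), a ratio of means of 1.34.

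Tlx3 and Prrxl1, homeodomain factors of the circuits for pain, rose as well. Tlx3 (chr11:33200752-33203588, minus strand) is known as a selector of the glutamatergic fate. It was at 64.8, 79.4, 61.2 and 64.5 FPKM in MACS-sorted and at 32.1, 32.9, 31.6 and 28.8 FPKM in unsorted replicates 1 to 4. All sorted samples were high, replicate 2 most so, and the log2-fold change was 1.10 (SE 0.089, adjusted p = 1.1e-05, limma). Prrxl1 (DRG11; chr14:32599927-32649246, plus strand) is needed for nociceptive fibres to form their connections in the spinal cord. It was at 20.2, 24.96, 19.8 and 22.6 FPKM in MACS-sorted and at 12.7, 12.8, 12.4 and 11.7 FPKM in unsorted replicates. The unsorted samples were tightly grouped below the sorted ones. The change of Prrxl1 was 0.81 on the log2 scale (SE 0.086, adjusted p = 5.4e-05, limma).

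The 2 factors tied most closely to the nociceptor lineage, Prdm12 and Runx1, also rose. Prdm12 (chr2:31640037-31655795, plus strand), a PR-domain protein whose loss in humans causes an inborn insensitivity to pain, was at 127.7, 122, 108 and 89.6 FPKM in replicates 1 to 4 of the MACS-sorted group. Its unsorted values were 54.0, 54.2, 53.7 and 48.9 FPKM. MACS-sorted replicate 4 was the lowest of its group and still above all unsorted samples. The log2-fold change of Prdm12 was 1.07 (SE 0.11, adjusted p = 3.8e-05, limma). Runx1 (chr16:92601466-92826074, minus strand), the Runt-domain factor of the non-peptidergic branch, was at 37.6, 36.3, 41.9 and 32.8 FPKM in MACS-sorted and at 16.2, 16.1, 14.7 and 15.8 FPKM in unsorted replicates. The lowest sorted value was more than the highest unsorted value by a wide margin. With the deposited scaling and all samples, Runx1 had the largest estimate of the 9 factors, 1.23 (SE 0.082, adjusted p = 3.5e-06, limma), a ratio of means of 2.37.

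Runx1 is also a factor of blood cell formation, and blood cell genes differed between the groups. The leukocyte markers (3 of 8 tested, all 3 lower) summed to 1.41 to 4.52 FPKM after sorting and 10.5 to 21.7 FPKM before it. Those of megakaryocytes summed to 0.173 to 1.59 FPKM after sorting and 1.98 to 5.75 FPKM before it, with Gp1bb at 0 throughout. Pf4 made up most of the latter sum, at 2.73 FPKM before and 0.0462 FPKM after sorting. Ptprc and Gp9, too low to test, had higher means after sorting, 1.03 against 0.634 FPKM and 0.270 against 0.0217 FPKM. Red blood cell genes moved the other way, 9 of 9 rows tested being higher, with Hba-a2 on more than a single row. Without MACS-sorted replicates 3 and 4, which held the most red blood cell RNA, the log2-fold change of Runx1 remained 1.23 and those of Isl2, Tlx3, Prdm12 and Prrxl1 were 1.28, 1.19, 1.25 and 0.85. MACS-sorted replicates 1 and 2 still held 1685 and 2535 FPKM of red blood cell genes, where unsorted samples held 112 to 400 FPKM. The part of blood cells in the level of Runx1 was not tested. Annotated antisense genes overlap Prdm12 (Gm13425) and Runx1 (Gm26626). Neither is listed in the table, and how strand was treated in counting is not given in the sources used here.

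**Figure D2:**
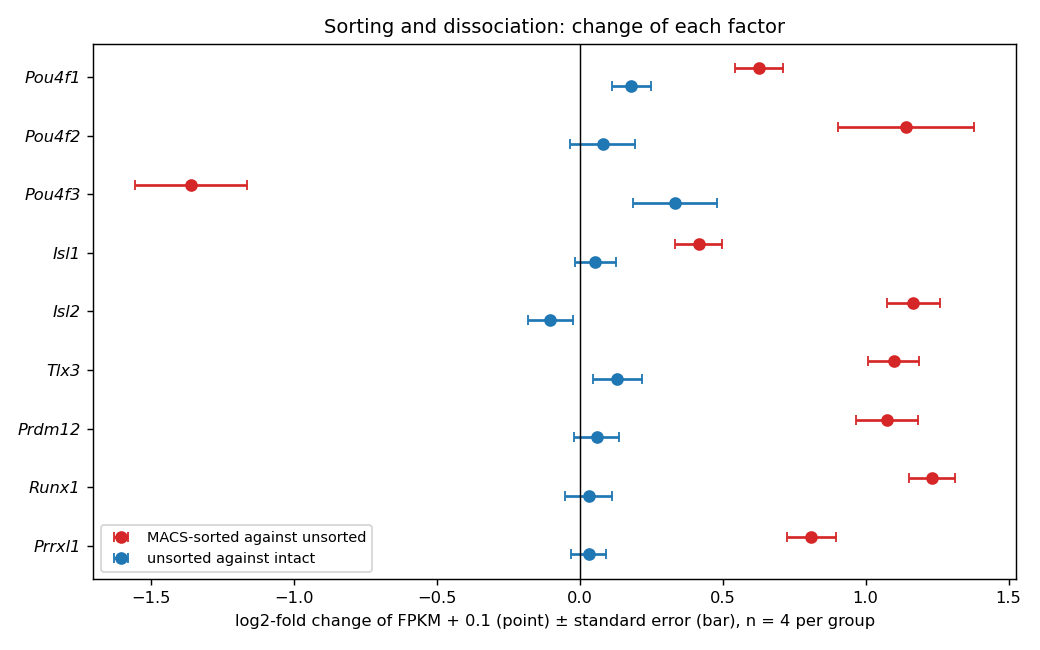
Log2-fold change of each factor (horizontal axis, mean of the first group minus mean of the second, as log2 of FPKM + 0.1) for MACS-sorted against unsorted (red) and unsorted against intact samples (blue), with bars of 1 standard error and 4 samples per group. The red points run from -1.36 for Pou4f3 to 1.23 for Runx1, and the blue points stay between -0.10 for Isl2 and 0.33 for Pou4f3.

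Scaling can shift all of these values together, and glial RNA was lower after sorting. The samples were also rescaled to an equal level of the 10 pan-neuronal genes. This moved the median of all genes tested from -0.04 to 0.09 and the median of the 9 factors from 1.07 to 1.20. Pou4f1 was then at 0.76, Isl1 at 0.55, Isl2 at 1.30, Runx1 at 1.36 and Pou4f3 at -1.23, and all 9 still passed in the same direction. The split of called genes depended more on scaling, with 981 higher and 1505 lower as deposited, 1452 and 1186 at an equal pan-neuronal level, and 1382 and 1285 after quantile normalization. The pan-neuronal genes were not level themselves. Of the 10, Syt1, Elavl3 and Elavl4 rose and Tubb3, Snap25 and Nsg1 fell. Their estimates ran from -1.92 to 0.75, and Nsg1 went from a mean of 48.5 FPKM in unsorted to 13.1 FPKM in MACS-sorted samples. The part of single genes in this scaling was not tested.

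**Figure D3:**
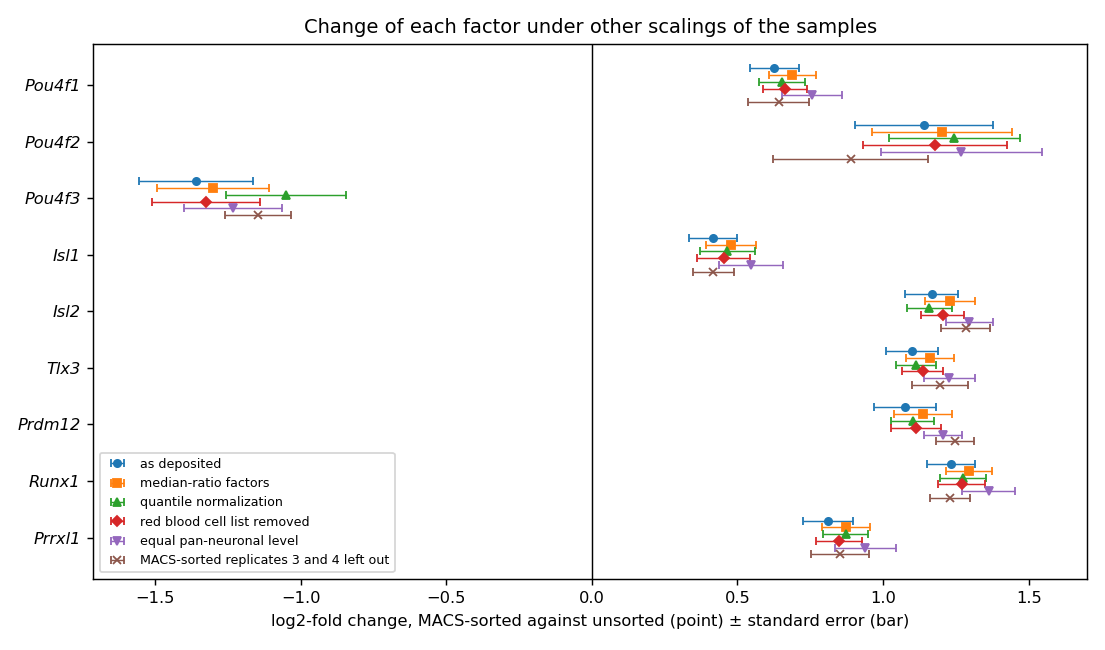
Log2-fold change of each factor with sorting, MACS-sorted against unsorted (horizontal axis, bars of 1 standard error), as deposited, under 4 other scalings and without MACS-sorted replicates 3 and 4 (symbols in the legend). No symbol changes side of 0, and for Runx1 they run from 1.23 to 1.36.

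Dissociation itself was examined by setting unsorted against intact samples. None of the 9 factors passed the test (limma adjusted p from 0.092 to 0.82 over 12392 genes), and 2 of 9, Pou4f1 and Pou4f3, had an unadjusted p under 0.05, where 37.5% of all tested genes did. Over all genes tested, 22.5% had an adjusted p under 0.05, 14.8% higher and 7.79% lower, and 7.04% were called, 4.29% higher and 2.76% lower. No factor stood apart between the groups, where 20.8% of genes were higher and 12% lower with no overlap. Intact replicates 1 to 4 held 49.1, 43.9, 43.8 and 47.0 FPKM of Pou4f1, close below the unsorted range and overlapping it. The estimate was 0.18 (SE 0.069, adjusted p = 0.092, limma), and without intact replicate 1, the sample with muscle RNA, it was 0.21 (adjusted p = 0.015). Pou4f3 was at 4.33, 4.92, 6.84 and 6.72 FPKM in intact replicates, 2 samples lower and 2 near the unsorted level, and its estimate was 0.33 (SE 0.15, adjusted p = 0.13, limma). Intact levels of the rest, as means ± SD with n = 4, were 71.3 ± 4.91 FPKM for Isl2, 50.7 ± 4.18 FPKM for Prdm12, 28.9 ± 1.84 FPKM for Isl1 and 28.7 ± 2.86 FPKM for Tlx3. Runx1 stood at 15.4 ± 1.45 FPKM, Prrxl1 at 12.1 ± 0.408 FPKM and Pou4f2 at 5.78 ± 0.446 FPKM (SD, n = 4). For those 7 genes the intact and unsorted samples overlapped, with estimates between -0.10 and 0.13.

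The same step scaled to an equal pan-neuronal level gave a different picture. The pan-neuronal genes were higher in unsorted than in intact samples in 10 of 10 estimates, 5 of them past the test, so that this scaling moved the median of all genes to -0.27. On that scale Isl2 was at -0.39 (adjusted p = 0.0076), Isl1 at -0.23 (adjusted p = 0.029), Prdm12 at -0.22 (adjusted p = 0.025), Runx1 at -0.25 (adjusted p = 0.025) and Prrxl1 at -0.25 (adjusted p = 0.016, limma). Apart from Isl2, these lay within 0.05 of that median, and the other 4 factors did not pass, at -0.10 for Pou4f1, -0.20 for Pou4f2, -0.15 for Tlx3 and 0.06 for Pou4f3. The split of called genes moved from 531 higher and 342 lower to 106 and 1548. It was 343 and 428 when the red blood cell genes were removed and each sample was scaled to an equal sum of the remaining FPKM. Those genes made up 0.037% to 0.213% of the sum in intact and unsorted samples, while the sums ran from 283676 to 345341 FPKM. The pan-neuronal scaling thus turned the sign of the estimate through dissociation for 7 of the 9 factors, Isl2 staying negative and Pou4f3 positive. The direction of all 9 through sorting was the same under each scaling run.

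MACS-sorted samples, which share their values with the first comparison, were also set against intact ones. There 7 factors were called higher and 1 lower, where 18.3% of 12234 genes were called, 7.54% higher and 10.7% lower. No factor overlapped between the groups, where 15.6% of genes were higher and 21.9% lower with no overlap, and all 9 had an adjusted p under 0.05, where 34.8% of genes did, 14.1% higher and 20.6% lower. Log2-fold changes were 0.81 for Pou4f1, 1.22 for Pou4f2, 1.06 for Isl2, 1.23 for Tlx3, 1.13 for Prdm12, 1.26 for Runx1 and 0.84 for Prrxl1. Isl1 rose by 0.47 (adjusted p = 0.0046, limma) and was again short of the size criterion, and at an equal pan-neuronal level it did not pass (0.32, adjusted p = 0.063). Pou4f3 fell by 1.03 on the log2 scale (adjusted p = 0.0088, limma) and did not pass after quantile normalization (-0.68, adjusted p = 0.057). Over all genes the calls were 922 higher and 1313 lower, and 1248 and 1183 after quantile normalization or 533 and 1783 at an equal pan-neuronal level.

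FPKM is corrected for length, so levels can be ordered between genes. Isl2 was the highest of the 9 in all 3 groups, at percentile 97.45 of genes averaging 1 FPKM or more after sorting, 92.62 before it and 93.67 in whole ganglia, and its samples did not overlap those of the next gene. Prdm12 and Pou4f1 followed, overlapping each other in every group. In intact and unsorted samples Isl1 and Tlx3 came next and overlapped, then Runx1, then Prrxl1, and last Pou4f2 and Pou4f3, which overlapped as well. After sorting, Tlx3 reached the range of Pou4f1 and stood apart from Isl1, Runx1 overlapped Isl1, and Pou4f3, at 2.79 ± 0.777 FPKM (SD, n = 4), stood alone below Pou4f2 at percentile 17.49. By the study's definition of an expressed gene, more than 5 FPKM in all 4 samples, 8 of the 9 were expressed after sorting, 9 before it and 8 in whole ganglia, against 29.2%, 32.2% and 31.4% of all genes. Pou4f3 was the one that was not, in both intact and MACS-sorted samples.

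A ratio of 2 genes within a sample does not depend on scaling. The ratio of Isl2 to Isl1 was 3.74 ± 0.440 in MACS-sorted, 2.22 ± 0.265 in unsorted and 2.47 ± 0.144 in intact samples (SD, n = 4). The MACS-sorted samples lay above all others, and the difference from unsorted samples was 0.75 on the log2 scale (exact two-sided permutation p = 0.0286, the smallest that 4 against 4 allow, and 0.0857 after Benjamini-Hochberg adjustment over 6 ratio tests). The ratio of Pou4f3 to Pou4f1 was 0.0352 ± 0.0121, 0.137 ± 0.0132 and 0.125 ± 0.0307 in the same order (SD, n = 4). It was lower in every MACS-sorted sample, by 2.02 on the log2 scale (exact permutation p = 0.0286, adjusted 0.0857). The ratio of Pou4f2 to Pou4f1 overlapped, at 0.175 ± 0.0508 in MACS-sorted and 0.118 ± 0.0129 in unsorted samples (SD, n = 4; exact permutation p = 0.0857, adjusted 0.171), with MACS-sorted replicate 1 among the unsorted values. No ratio passed 0.05 after adjustment. Between unsorted and intact samples all 3 ratios overlapped (exact permutation p = 0.2, 0.343 and 0.514).

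**Figure D4:**
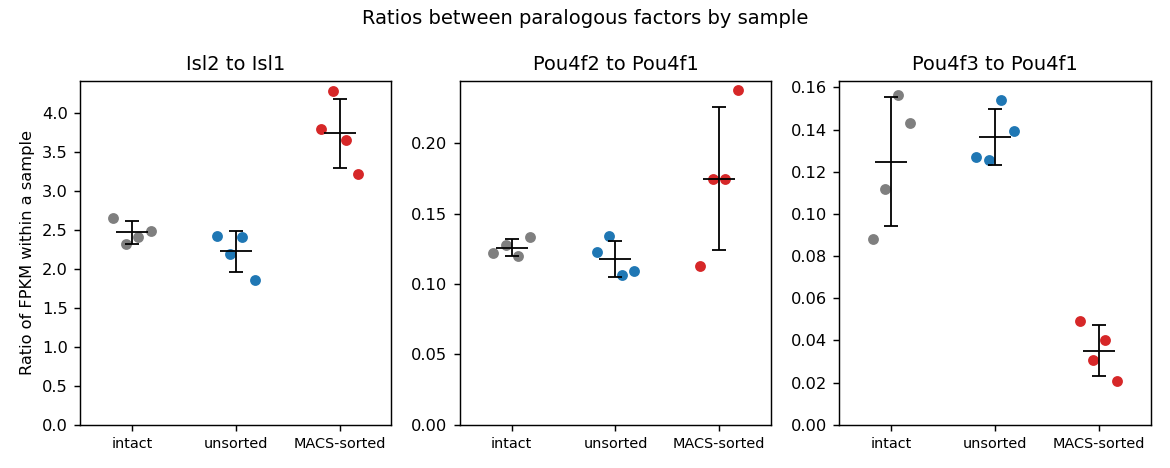
Ratio of FPKM between paralogous factors within each sample (vertical axes, linear from 0, one panel per ratio), with points for the 4 samples of each group, a long bar for the mean and short bars for ± SD. The MACS-sorted points stand above the others for Isl2 to Isl1, below them for Pou4f3 to Pou4f1, and overlap them for Pou4f2 to Pou4f1.

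Among genes for proteins that act with these factors, about the same share rose as among all genes. Of 15 tested cofactors and partners, 3 rose and 7 fell between unsorted and MACS-sorted samples (adjusted p under 0.05, limma), where 18.8% of all genes tested rose and 27.7% fell. The median log2-fold change was -0.08, against -0.04 over all genes tested. Ldb2, a bridging protein of LIM-homeodomain complexes, rose from 38.6 ± 2.14 to 94.0 ± 9.25 FPKM (SD, n = 4; 1.28, limma adjusted p = 3.0e-06), while its relative Ldb1 was at 23.2 ± 1.53 and 26.5 ± 1.75 FPKM (SD, n = 4; 0.19, limma adjusted p = 0.060). Klf7, a Krüppel-like factor of sensory neurons, rose from 49.6 to 75.1 FPKM, and Tle1, a Groucho corepressor, by 0.80 on the log2 scale. Cbfb, the common partner of the Runx proteins, moved opposite to Runx1 and fell from 102 ± 6.80 to 59.8 ± 5.99 FPKM (SD, n = 4; -0.77, limma adjusted p = 7.9e-05). Also called lower were Lmo1, Lmo4 and Pbx3, at -1.01, -1.30 and -0.53.

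Factors of early sensory neurogenesis were mostly too low to test, 4 of 13 reaching it, and those 4 rose, by a median of 0.98. Insm1, a zinc finger factor of neuronal precursors, rose from 2.78 to 8.25 FPKM, Sox4 from 9.05 to 16.1 FPKM and Sox11 from 1.86 to 4.34 FPKM. The factors of mechanoreceptors and proprioceptors went the other way, with 8 of 8 tested lower and a median of -3.13. Maf fell from 20.8 to 1.31 FPKM, Esrrg from 9.75 to 0.799 FPKM and Meis2 from 6.08 to 0.739 FPKM. Etv1, a factor of proprioceptors, fell least, from 24.8 to 17.1 FPKM, with overlapping samples (-0.57, limma adjusted p = 0.024). The 10 marker genes of large-diameter neurons also fell, all 10 of them, with a median of -3.04 and sums of 402 to 569 FPKM after sorting against 2121 to 2525 FPKM before it. Glial markers fell beside them, 8 of 8 for satellite glia and 7 of 8 for Schwann cells. Of the 9 factors only Pou4f3 moved in the direction of these lists, and their part in its fall was not tested.

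**Figure D5:**
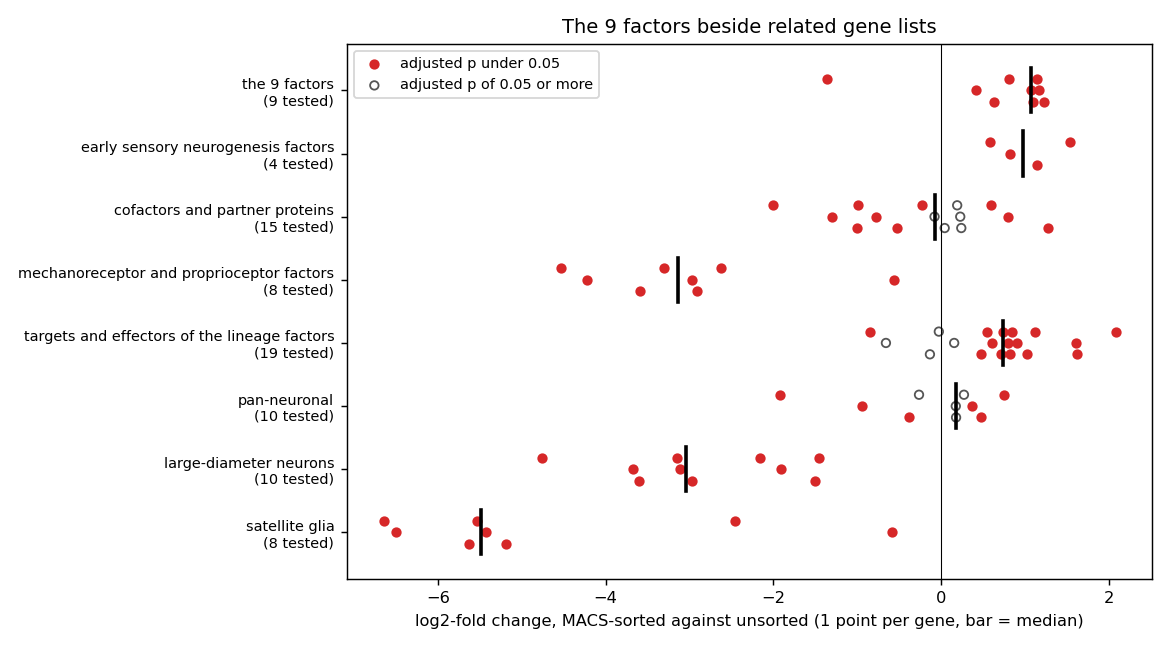
Log2-fold change with sorting, MACS-sorted against unsorted (horizontal axis), of each tested gene (points, filled where the adjusted p was under 0.05) in the 9 factors, 4 lists of related genes and 3 lists of cell type markers, with a bar at each median. The 9 factors have a median of 1.07, the mechanoreceptor and proprioceptor factors of -3.13 and the large-diameter neuron markers of -3.04.

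Known targets and effectors of the lineage factors mostly rose. Of 19 tested, 14 rose and 1 fell, with a median of 0.74. Scn10a, the sodium channel Nav1.8, rose from 173 ± 12.1 to 284 ± 32.0 FPKM (SD, n = 4; 0.71, limma adjusted p = 2.4e-04), Avil, advillin, from 228 to 349 FPKM, and Tac1, the precursor of substance P, from 153 to 227 FPKM with overlapping samples. Mrgpra3, an itch receptor of the Runx1 branch, rose from 11.4 to 48.7 FPKM. Calca, the precursor of CGRP, was at 1015 ± 60.9 FPKM in unsorted and 936 ± 176 FPKM in MACS-sorted samples (SD, n = 4; -0.13, limma adjusted p = 0.46). Ret, the receptor of the GDNF family, rose from 132 to 221 FPKM. Many of these genes are nociceptor markers that the study also examined on these samples.

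Most other members of the same families were at low levels. None of 10 other LIM-homeodomain genes reached a mean of 1 FPKM, Lmx1b having the highest mean over all samples. Of 11 other POU genes 3 were tested, and Pou3f1 fell from 3.21 to 0.142 FPKM, while Pou6f1 was at 7.98 FPKM before and 7.50 FPKM after sorting and Pou2f1 at 1.48 and 1.35 FPKM (adjusted p = 0.41 and 0.54, limma). Among 9 tested Runx, Tlx and Prdm relatives, Tlx2 rose from 33.1 to 52.0 FPKM and Prdm8 from 6.20 to 9.14 FPKM. Runx3, the counterpart of Runx1 in proprioceptors, fell from 2.87 to 0.401 FPKM and Prdm16 from 1.78 to 0.367 FPKM. Prdm2 and Prdm4 stood at 11.6 and 10.3 FPKM after sorting and did not pass (adjusted p = 0.74 and 0.59, limma).

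In the step from intact to unsorted samples the related lists moved unevenly. Of the mechanoreceptor and proprioceptor factors 6 of 10 tested were higher in unsorted samples, and so were 8 of 10 large-diameter neuron markers. Meis2 was at 3.27 and 6.08 FPKM, Esrrg at 5.42 and 9.75 FPKM and Etv1 at 14.5 and 24.8 FPKM in intact and unsorted samples, all 3 called. The early neurogenesis list had 1 of 4 higher, Sox4, the cofactors 1 of 15, Pbx3, and the targets 3 of 19 higher and 3 lower. Mrgprb4 was among those lower, at 17.8 and 10.9 FPKM. The fibroblast list (6 of 7 lower), the skeletal muscle list (6 of 8 lower), the leukocyte list (6 of 6 tested lower) and the endothelial list (6 of 6 higher, median 1.07) moved in the same step. With sorting, none of the 6 endothelial genes passed the test (limma), nor did any at an unadjusted p under 0.05.

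The genes whose levels ran most like each factor over the 12 samples were found among 8262 candidates averaging 5 FPKM or more, by Pearson's r of log2(FPKM + 0.1). These are descriptions, since the 12 points share 3 groups and all group differences enter them. Tlx3 and Prrxl1 were among each other's 2 nearest genes (r = 0.991), the only such pair of the 9. Gfra2, the co-receptor of neurturin, ran closest to Pou4f1 (r = 0.986), with 139 FPKM after sorting, 55.6 FPKM before it and 46.6 FPKM in whole ganglia. Acpp, prostatic acid phosphatase of non-peptidergic nociceptors, was second to Ebf3 for Runx1 (r = 0.988 and 0.989). Nearest to Isl2 was Cpne2 (r = 0.996), to Prdm12 Icmt (r = 0.993), to Pou4f2 Zfp521 (r = 0.984) and to Isl1 Mfsd10 (r = 0.952). Pou4f3 was matched by genes that were lower after sorting, Sec14l1 (r = 0.978), at 20.3 FPKM before and 12.8 FPKM after sorting, and Smpd3 (r = 0.973).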

How the data were processed

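RNA-seq was analysed for 4 intact, 4 unsorted and 4 MACS-sorted samples, grouped by their titles, and all 12 were used. Per the labels and the study's methods, the authors aligned poly(A)-selected, directional libraries to mm10 with TopHat2, merged lanes with SAMtools and estimated FPKM with Cufflinks 2.1.1, and the deposited values are FPKM, with no read counts. Locus starts were counted from 1.

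Tests between groups used limma 3.58.1 (R 4.3.3) on log2(FPKM + 0.1) with a trended prior, two-sided, on the 8 samples compared and on genes averaging 1 FPKM or more, with Benjamini-Hochberg adjustment over all genes tested. Calls required an adjusted p under 0.05, group means apart by more than 0.5 as a log2 ratio, and over 5 FPKM on average where expression was higher, the study's limits, with limma in place of CuffDiff, which needs aligned reads. Fold changes on this scale understate those of low genes. Ratios used exact permutation tests (SciPy 1.17.1). The fit was tested on simulated data. The replicates are biological by the submitters' account, and p-values set group differences against the spread between these pooled or single-animal samples. That spread is not the spread between mice, as the groups pooled unequal numbers of them.

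The 9 genes and all lists were chosen with earlier results of these data known. From each list of related genes the text names the 4 with the highest mean over all samples and any called gene where 5 or fewer are counted. It also names up to 2 genes most like each factor. Ret, Mrgpra3, Mrgprb4, Runx3, Prdm16 and the pan-neuronal genes were named after their values were seen. Values of some genes of the lists are not reported here, although they remain in all counts. Promoters came from RefSeq and overlapping genes from GENCODE M21. Alternatives covered pseudocounts, filters, call limits, scaling, a replicate block, a fit on all samples, averaging of unsorted replicates 1 and 2, and leaving out each replicate. Leaving out MACS-sorted replicates 3 and 4 together was added after seeing the data.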

Additional observations from a re-analysis of the deposited data

Results flagged for a closer look

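In 105 groups of 4 samples, from 35 items, the highest or lowest sample was compared with the gap that Dixon's 95% critical value allows. The items were the 9 factors, the within-sample ratios tested above and the other named list genes averaging 1 FPKM or more. Chance alone gives about 5% of groups, and 13 were found. Among the 9 factors there was 1, Prdm12 in unsorted replicate 4, at 48.9 FPKM where the other 3 samples held 53.7 to 54.2 FPKM.

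Intact replicate 1, the sample with muscle RNA, accounted for 8 of the 13. It was high for Calca (1815 against 941 to 1022 FPKM in the other intact samples), Tac1 (321 against 128 to 152 FPKM), Insm1 (3.597 against 2.47 to 2.66 FPKM) and Pou3f1 (2.63 against 1.73 to 1.88 FPKM). It was low for Klf7 (31.1 against 53.2 to 55.1 FPKM), Scn10a (100.8 against 155 to 161 FPKM), Esrrg (3.38 against 5.86 to 6.32 FPKM) and Pou2f1 (1.32 against 1.79 to 1.86 FPKM). For none of the 9 factors did this sample stand apart.

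Unsorted replicate 3 was low for Cbfb (92.0 against 105 to 107 FPKM) and high for Avil (245.5 against 221 to 224 FPKM) and Scn10a (191 against 165 to 169 FPKM). MACS-sorted replicate 4 was low for Scn10a (237 against 297 to 306 FPKM). The reasons were not tested.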

How the results depend on the processing

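Between MACS-sorted and unsorted samples, the 9 factors kept their direction and stayed past the test in all 215 combinations of factor and alternative, with Isl1 between 0.36 and 0.55 and Pou4f3 between -1.48 and -1.05. A filter at a mean of 5 FPKM left Pou4f3 untested. Of the factors, 6 to 9 were called, and 6 to 9 against intact samples, where 2 of 206 combinations no longer passed. Between unsorted and intact samples, scaling to an equal pan-neuronal level reversed Isl1 (-0.23), Prdm12 (-0.22), Runx1 (-0.25) and Prrxl1 (-0.25), beside a shift of all genes. The signs of Pou4f1 (-0.10), Pou4f2 (-0.20) and Tlx3 (-0.15) also turned, without passing. No factor was called in any of 23 alternatives there.

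Counts over all genes moved by more than 1.5 times in these cases. A log2 ratio beyond 1 gave 1139 calls for sorting, 165 for dissociation and 1011 for MACS-sorted against intact samples, and the adjusted p alone gave 5592, 2793 and 4252. For dissociation, scaling to the pan-neuronal level gave 1654 and a limit of 1 FPKM on the higher group 1349. Leaving out each replicate gave 579 to 885, the lowest without unsorted replicate 3. Without 1 replicate, the log2 difference in the ratio of Isl2 to Isl1 ran from 0.67 to 0.82 and that of Pou4f3 to Pou4f1 from -2.20 to -1.80. With unsorted replicates 1 and 2 averaged they were 0.77 and -2.06. In each of these cases p was 0.0571, the smallest that 3 against 4 samples allow.

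Groups share replicate numbers, but same-numbered samples did not deviate together (correlations of -0.143 to 0.067). With a replicate block the calls over all genes were 2507, 899 and 2229, and 8, 0 and 8 of the factors were called. The block changed no call of a factor.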
